A study of Mus musculus with 4 samples.

Results

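Subclones L25 and L27 of the mouse hybridoma 36-65 are labelled alike, as lines with low frequencies of isotype switching in culture, and their transcripts were compared with each other on 1 expression array each. A probe set was taken as divergent when its mean over both arrays was at least 7 on the log2 scale and its values differed by at least 1 on that scale, which is 2-fold. This rule found 58 of 14561 probe sets at that level (0.398%), out of 45037 probe sets that are not controls. Of these, 39 were higher in L25 and 19 were higher in L27. The members were chosen from these same values, so the differences between L25 and L27 are given as a description, with no test.

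In a hybridoma, an antibody-producing B cell has been fused to a myeloma partner so that it grows without end, and a subclone is the progeny of a single cell of such a line. Isotype switching exchanges the constant region of the antibody heavy chain. The study also holds subclones H23 and H27 of the same hybridoma, labelled as switching spontaneously at high frequencies, again with 1 array each. All 4 subclones were untreated, as far as the labels say, and grew in the same supplemented medium with 10% fetal calf serum. Each line is 1 clone, and nothing in the labels says how far apart in time or passage the subclones were taken. A difference between L25 and L27 therefore has no replicate check, and fewer cells with a transcript cannot be told apart from less of it in each cell.

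Hybridoma cells resemble plasma cells, which silence much of the B cell program while they secrete antibody. Some surface receptors that sense antibody, cytokines or microbes belong to the B cell side of that program, but not all do. The receptor gene Tnfrsf17, counted here among the plasma cell genes, had log2 intensities of 9.32 in L25 and 9.05 in L27. The D-type cyclins couple such outside signals to entry into the cell cycle.

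Both low switching subclones carried the transcripts of plasma cells. Jchain, which joins antibody units, had log2 intensities of 14.35 in L25 and 14.49 in L27, and the chaperone gene Mzb1 had 13.58 and 13.61. Sdc1, the plasma cell surface proteoglycan, had 12.48 and 12.44. None of the 8 measured plasma cell genes was a member, and the largest difference among them was in Prdm1, the plasma cell repressor of B cell genes, at 10.91 in L25 and 11.48 in L27. Only 7 of them reached a low pair mean of 7. Of all 8246 genes at that level 0.509% had a member, so an absence among so few genes says little. Of 94 measured markers of T, NK, myeloid, mast, erythroid and fibroblast cells, 62 lay below the median of both arrays and 7 reached a low pair mean of 7. Among all 18193 genes measured, 6510 lay below the median of both arrays. None of those lists held a member, and only the 7 markers at that level could have been one.

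Promoter sequences are shown for 4 genes on which the description turns. Fcrla and Fcgr2b are neighbouring genes that were both higher in L25, S1pr2 had the largest difference of the named genes higher in L27, and Pim2 had the brightest member. Each runs 5′ to 3′ from 250 bases before to 50 bases after the gene's start in RefSeq, build GRCm38.p6. Capitals mark matches to any of 4 motifs searched on both strands.
Fcrla (chr1:170927534-170927833, minus strand): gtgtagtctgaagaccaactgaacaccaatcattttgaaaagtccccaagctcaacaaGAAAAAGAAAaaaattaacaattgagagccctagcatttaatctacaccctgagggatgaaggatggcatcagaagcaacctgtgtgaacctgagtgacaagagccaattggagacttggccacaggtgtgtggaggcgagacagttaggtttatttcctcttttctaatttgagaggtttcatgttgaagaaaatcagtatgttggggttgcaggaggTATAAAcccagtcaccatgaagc
Fcgr2b (chr1:170976022-170976321, minus strand): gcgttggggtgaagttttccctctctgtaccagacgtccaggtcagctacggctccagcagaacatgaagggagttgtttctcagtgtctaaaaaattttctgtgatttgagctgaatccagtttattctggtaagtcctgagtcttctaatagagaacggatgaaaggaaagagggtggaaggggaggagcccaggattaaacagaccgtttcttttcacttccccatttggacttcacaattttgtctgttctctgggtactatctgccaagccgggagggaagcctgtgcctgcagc
S1pr2 (chr9:20976744-20977043, minus strand): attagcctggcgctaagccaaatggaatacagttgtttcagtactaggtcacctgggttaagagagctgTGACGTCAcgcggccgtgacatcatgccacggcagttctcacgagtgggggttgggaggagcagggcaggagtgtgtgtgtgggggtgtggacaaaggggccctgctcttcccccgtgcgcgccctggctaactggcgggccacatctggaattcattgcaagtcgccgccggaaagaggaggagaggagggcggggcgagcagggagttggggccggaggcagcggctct
Pim2 (chrX:7878056-7878355, plus strand): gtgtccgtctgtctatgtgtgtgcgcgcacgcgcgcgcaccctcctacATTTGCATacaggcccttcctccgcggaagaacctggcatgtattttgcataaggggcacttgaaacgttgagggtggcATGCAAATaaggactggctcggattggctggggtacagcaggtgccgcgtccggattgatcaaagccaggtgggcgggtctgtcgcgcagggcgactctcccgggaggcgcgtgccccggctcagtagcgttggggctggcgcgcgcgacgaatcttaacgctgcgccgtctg

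The motifs were the octamer ATGCAAAT, bound by Oct factors in B cells, the cAMP response element TGACGTCA, the interferon response element, searched as a pair of GAAA blocks with any 2 bases between them, and the TATA box TATAAA. Fcrla shows the interferon element and the TATA box, S1pr2 the cAMP element, and Pim2 the octamer at 2 places, once on each strand. Fcgr2b shows no match, which says only that these letters are not in this window. Of 32851 promoters of this length, 1.74% hold the octamer, 1.79% the cAMP element, 3.44% the interferon element and 13.6% the TATA box. Promoters were found for 37 of the 42 member genes, as 48 windows, of which 1, 1, 4 and 5 hold these motifs in the same order. The motifs do not overlap each other, and a match is a description, not a binding site.

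Most transcripts differed little between the low switching subclones. Over the 14561 probe sets at the same level, the median difference of L25 minus L27 was -0.02 and its SD over probe sets was 0.24. The median size of the difference was 0.13 over these probe sets and 1.16 over the members. The members higher in L25 reached further. Differences of at least 1.5 were found for 14 probe sets higher in L25 and for 1 higher in L27, and the largest folds were 6.73 and 3.35. Both extremes, 1447135_at and 1451632_a_at, have no gene symbol in the platform annotation. The level of 7 left out dimmer probe sets, among them the brightest of Btg1, whose difference of -3.16 was larger than that of any member. With a mean of at least 6, the rule found 53 probe sets higher in L25 and 38 higher in L27.

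**Figure D1:**
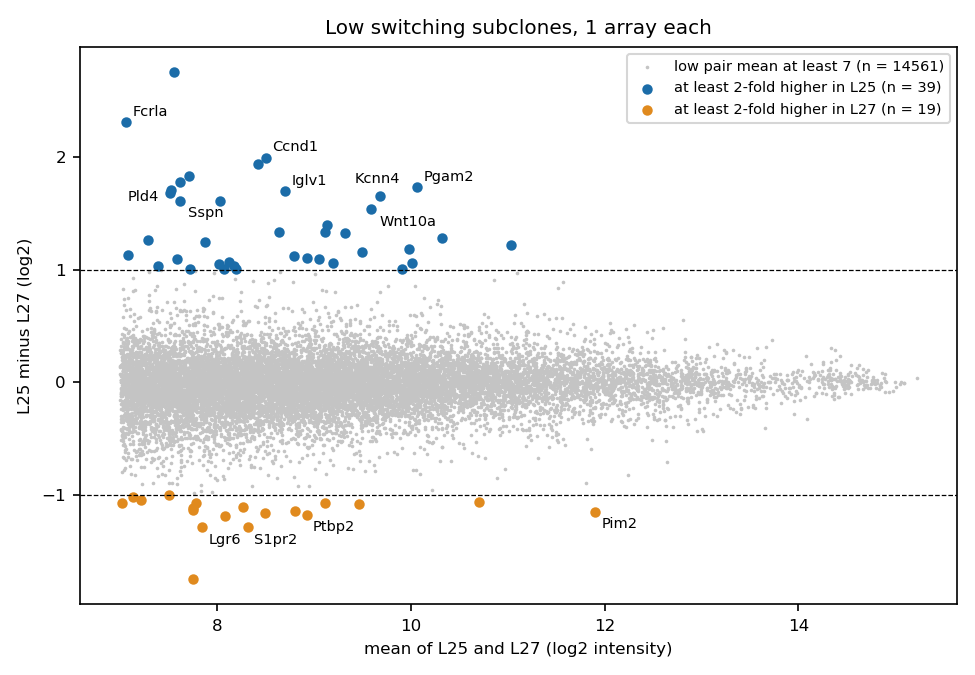
Difference of L25 minus L27 (log2) against the mean of both arrays (log2 intensity), 1 array for each subclone. Grey points are the 14561 probe sets with a mean of at least 7, blue points the 39 members higher in L25 and orange points the 19 higher in L27, and dashed lines mark the 2-fold rule.

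Cyclin D1 (Ccnd1), which drives passage through the early cell cycle with its kinase partners, was the member gene with the most member probe sets. Its 3 probe sets all differed by more than 3-fold. The brightest of them read 9.50 in L25, 7.50 in L27, 6.16 in H23 and 7.25 in H27 (log2). Another read 8.63, 6.80, 6.12 and 6.55 in that order, and the third 8.51, 6.73, 6.30 and 6.54. L25 stood above all 3 other subclones on each of them, by 1.78 to 1.99 over L27. H23 was the lowest array on all 3.

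A pair of genes of the Fc receptor family, Fcrla and Fcgr2b, were members higher in L25. Fcrla encodes an Fc receptor-like protein that stays inside B cells, and its probe set 1419907_s_at read 8.21 in L25, 5.91 in L27, 6.05 in H23 and 6.11 in H27. A further probe set read 8.38, 6.67, 6.66 and 6.44. L25 was alone in its high level, and L27 read close to both high switching subclones. Fcgr2b, the inhibitory IgG receptor of B cells, read 9.31 in L25, 7.97 in L27, 9.55 in H23 and 8.97 in H27. Its other member probe set read 8.66, 7.59, 9.02 and 8.45. Here L27 was the low subclone, and L25 lay between the high switching arrays. So the neighbouring genes shared the direction between L25 and L27 but not the subclone that stood apart.

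Of the other members higher in L25, 5 encode surface or signal proteins of B cells, although the list of B cell genes as a whole did not lean to L25, with 12 of 23 genes higher in L25 and 11 in L27. Tnfrsf13b, which encodes TACI, a receptor for the survival factors BAFF and APRIL, read 10.57 in L25, 9.40 in L27, 9.60 in H23 and 9.37 in H27. Btk, the tyrosine kinase downstream of the B cell receptor, read 7.91, 6.65, 6.62 and 6.14. Slamf6, a receptor of the SLAM family, read 8.13, 7.04, 6.95 and 6.45. In all 3, L25 was the highest array and the other subclones lay together or lower. Ly6d, a surface protein of early B-lineage cells, read 10.96, 9.67, 10.45 and 8.95, with L25 and H23 high. Tlr4, the receptor for bacterial lipopolysaccharide, read 8.22 in L25, 7.22 in L27, 5.79 in H23 and 5.71 in H27, so both low switching arrays lay above both high switching arrays.

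Kcnn4, a calcium-activated potassium channel of lymphocytes, was higher in L25 on both of its probe sets. The brighter read 10.51 in L25, 8.85 in L27, 7.57 in H23 and 6.99 in H27, and the other read 8.83, 7.23, 5.94 and 5.22. Wnt10a, a secreted signalling protein, read 10.35, 8.82, 6.14 and 6.05. Pgam2, the muscle form of a glycolytic mutase, read 10.93, 9.20, 5.89 and 6.34, and Cyb561a3, a membrane protein that transfers electrons, read 9.78, 8.45, 5.36 and 5.48. These 4 genes were ordered alike, with L25 highest, L27 next and both high switching arrays lowest. A further Cyb561a3 probe set kept that order with smaller differences, at 8.86 in L25, 8.17 in L27, 7.19 in H23 and 7.33 in H27. Pld4, a nuclease of endosomes, had another pattern, with 8.35 in L25 and 6.67 in L27, 6.67 in H23 and 6.68 in H27.

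Lcp1, which encodes the actin-bundling protein L-plastin of blood cells, had its lowest array in L27. Its probe sets read 9.35 and 8.54 in L25, 8.23 and 7.49 in L27, 10.00 and 9.14 in H23, and 9.83 and 9.05 in H27. Lrpap1, a chaperone of lipoprotein receptors, read 9.47 in L25, 8.37 in L27, 8.89 in H23 and 8.86 in H27 on one member probe set, and 10.53, 9.48, 9.99 and 10.00 on the other. Both high switching arrays lay between L27 and L25. Sspn, a membrane protein of the dystrophin complex, read 8.42, 6.81, 6.66 and 5.93, again with L25 alone.

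Enzymes and membrane proteins made up most of the remaining named members higher in L25. They were Cds2 and Lclat1, both enzymes of phospholipid synthesis, the protein disulfide isomerase Pdia5, the carboxypeptidase Cpm, the cytochrome P450 Cyp2c55, and the transmembrane protein Tmem242. Their differences lay between 1.01 for Cpm and 1.13 for Lclat1. The lectin-like gene Clec2i differed by 1.33, and Neurog3, a transcription factor of endocrine cells, by 1.00. The nuclear long noncoding RNA Malat1 differed by 1.39 and 1.15 on its member probe sets. A probe set of the lambda light chain gene Iglv1 differed by 1.70. The other 5 members higher in L25 have several symbols or none. Of these, 1450455_s_at differed by 1.93.

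**Figure D2:**
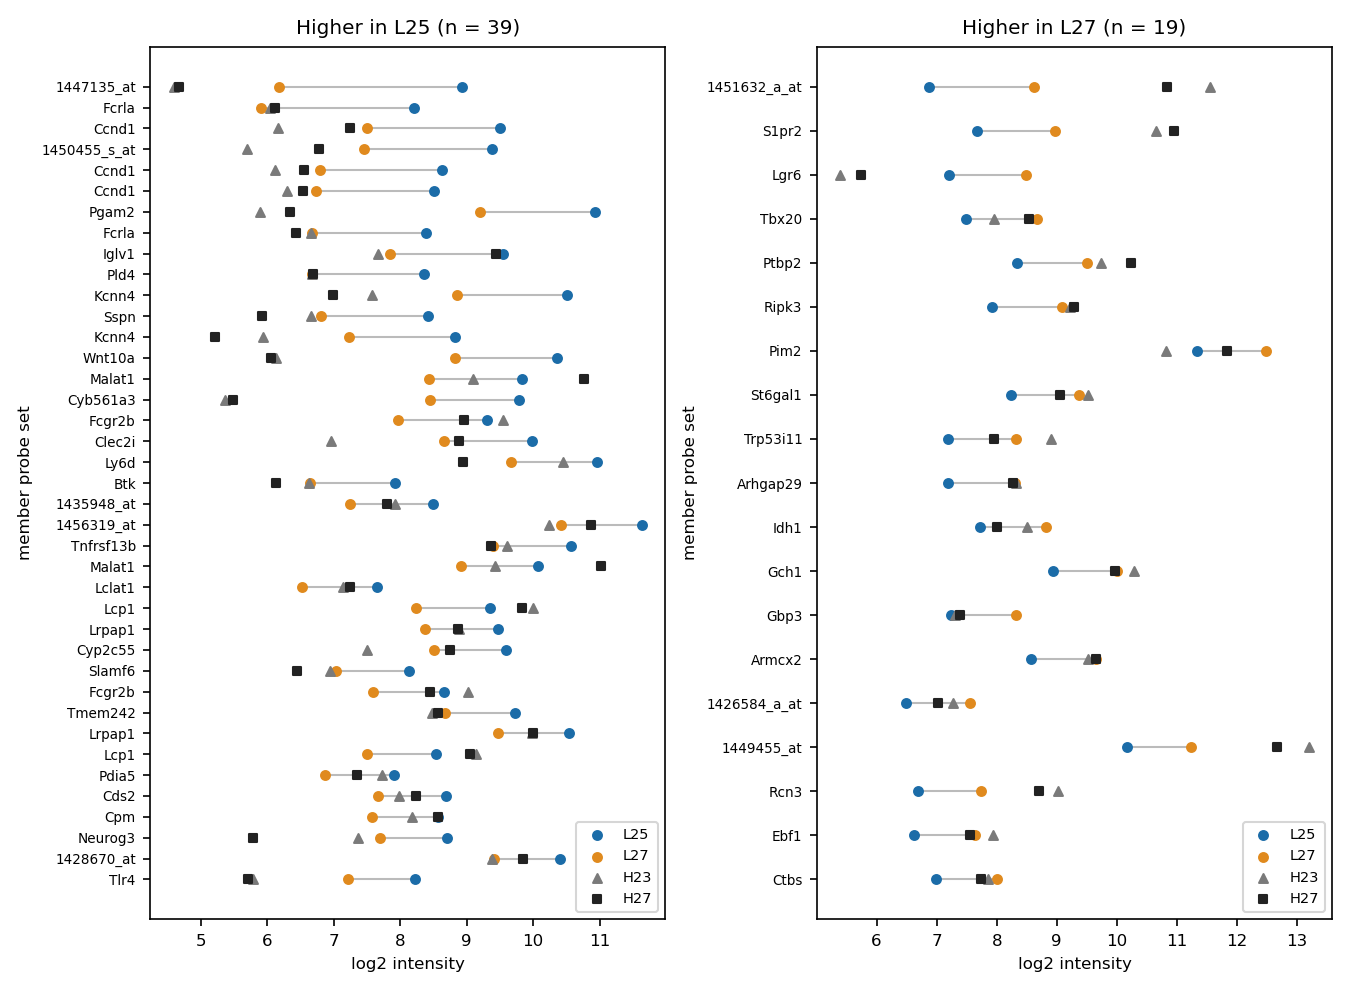
Log2 intensity of every member on the 4 arrays, with the 39 probe sets higher in L25 on the left and the 19 higher in L27 on the right, ordered by the size of the difference. Circles are the low switching arrays joined by a line, and triangles and squares are H23 and H27. Ccnd1 and Fcrla show L25 apart from the other arrays, and Lcp1 shows L27 apart.

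Among the 16 genes higher in L27, S1pr2 had the largest difference. It encodes a sphingosine-1-phosphate receptor that holds B cells in germinal centres. It read 7.68 in L25, 8.96 in L27, 10.64 in H23 and 10.95 in H27, so L27 lay between L25 and the high switching arrays. Lgr6, a receptor for R-spondins, read 7.21, 8.49, 5.40 and 5.74, so it was higher in both low switching arrays than in either high switching array. Rcn3, a calcium-binding protein of the secretory pathway, read 6.69, 7.73, 9.02 and 8.70, and L27 again lay between L25 and the high switching arrays.

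Other members higher in L27 encode regulators of transcription, RNA or cell death. Ebf1, a transcription factor that sets up the B lineage, read 6.62 in L25, 7.64 in L27, 7.95 in H23 and 7.55 in H27. Ptbp2, a splicing regulator that has been linked to the targeting of the switching enzyme AID, read 8.34, 9.51, 9.74 and 10.24. Ripk3, the kinase of necroptosis, read 7.92, 9.08, 9.22 and 9.29. L25 was the low array for these 3 genes, and L27 read close to the high switching arrays for Ebf1 and Ripk3. Pim2, a survival kinase abundant in plasma cells, read 11.33, 12.48, 10.82 and 11.83, and so varied in the high switching pair too. Tbx20, a transcription factor of the heart, read 7.49, 8.67, 7.95 and 8.54.

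Enzymes higher in L27 included St6gal1, which adds sialic acid to glycoproteins such as antibodies, at 8.23 in L25, 9.37 in L27, 9.52 in H23 and 9.05 in H27. Gch1, the first enzyme of tetrahydrobiopterin synthesis, read 8.93, 10.01, 10.28 and 9.96. L25 was the low array for both. Idh1, the cytosolic isocitrate dehydrogenase, read 7.72, 8.82, 8.50 and 8.0031, with the high switching arrays between. Gbp3, an interferon-inducible GTPase, read 7.24, 8.32, 7.30 and 7.38, so here L27 was alone. The lysosomal enzyme Ctbs, Arhgap29, Trp53i11 and Armcx2 had differences between -1.0032 and -1.13 (L25 minus L27), and L25 was the lowest array for each. The other 3 members higher in L27 have no symbol, and 1449455_at read 10.17 in L25, 11.23 in L27, 13.19 in H23 and 12.66 in H27.

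The edge of the rule fell within genes as well as between them. Just inside lay probe sets of Tlr4 (1.00), Ctbs (-1.0032), Neurog3 (1.00) and Cpm (1.01). Just outside lay Akr1c13 (0.99), Calhm6 (0.99), a further Tlr4 probe set (0.98) and Gsn (-0.98).

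Several probe sets on the array measure most member genes, and they mostly shared a direction. Of the 42 genes, 14 have a single probe set, and 3 (Ccnd1, Kcnn4 and Lcp1) have only members. The other 25 genes have 49 further probe sets, of which 40 had the sign of the member. Of the 19 that reached a low pair mean of 7, 16 did, with a median size of 0.68. Ebf1 showed the same direction on 4 of 5 probe sets. Malat1 did not hold together: its member probe sets and a further one at 0.74 were higher in L25, while the remaining 4 lay between -0.33 and -0.02. Iglv1 differed by 1.70 on its member and by 0.33 and 0.46 on its brighter probe sets (log2), and the member's _s_at name marks a probe set that can match several related transcripts.

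**Figure D3:**
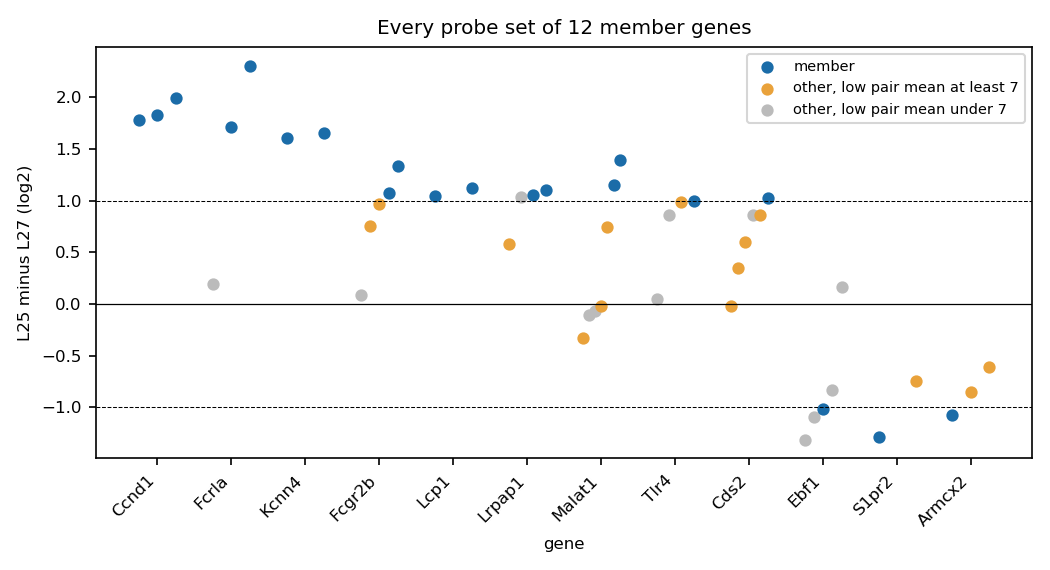
L25 minus L27 (log2) for every probe set of 12 member genes. Blue points are members, orange points other probe sets with a low pair mean of at least 7, and grey points dimmer ones. Ccnd1 and Kcnn4 have members alone, and Malat1 has probe sets on both sides of 0.

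The high switching arrays played no part in choosing the members, and their mean more often lay nearer to L27. The mean of H23 and H27 lay nearer to L27 than to L25 for 45 of 58 members (77.6%), against 54.9% of the 14561 probe sets at the same level. Nearer did not always mean close, since the mean lay within 2-fold of L27 for 32 of the 45 and further away for 13, such as Pgam2, Wnt10a and S1pr2. The count was alike in both directions, for 30 of 39 members higher in L25 and 15 of 19 higher in L27. The floor of 7 was set on the low pair alone, so probe sets dim in the high arrays entered only through the low pair. Examples are the member probe sets of Cyb561a3 and Tlr4, with high pair means of 5.42 and 5.75. For members higher in L25, that favours a high mean nearer to L27, the lower array, so their count is only a description. The mean of the high pair lay beyond L27, on the side away from L25, for 28 members, between both low arrays for 23 and beyond L25 for 7. At the same level, 83.3% of all probe sets had this mean outside the low pair. Members with the high switching arrays nearer to L25 were probe sets of Fcgr2b, Lcp1, Malat1, Lclat1, Pdia5 and Cpm among those higher in L25, and Gbp3, Idh1, Pim2 and Lgr6 among those higher in L27. The high and low arrays did not overlap for 26 of 58 members, against 63.6% of the probe sets at that level. Members have a wide low pair by the rule, so a lower share says nothing about them.

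The difference between switching classes was tested with limma across all probe sets. The adjusted p-value was under 0.05 for 8 of 58 members, against 3.59% of all 45037 probe sets and 7.64% of those at the level of the members. Of the 8, 5 were lower in the high switching subclones, against 5.07% of probe sets at the level of the members, and 3 were higher, against 2.58%. The 5 had high pair means of 5.42 to 6.11 and reached the level of 7 only through the low pair, so their direction is a description and supports nothing. The rule fixes a large spread between L25 and L27, which works against such a call. On the member probe sets, high minus low was -3.69 ± 0.40 (SE) for Cyb561a3, -3.49 ± 0.45 for Wnt10a and -3.95 ± 0.52 for Pgam2. It was -1.97 ± 0.31 for Tlr4 and -2.28 ± 0.39 for Lgr6. Their limma adjusted p-values were 0.0127, 0.0195, 0.0205, 0.0309 and 0.0401 in that order. It was 2.48 ± 0.39 for S1pr2 (limma adjusted p = 0.0324), and 2 probe sets with no symbol were higher too. Ccnd1, Fcrla and Fcgr2b did not pass, with limma adjusted p-values from 0.218 to 0.533 over their member probe sets. When H23 or H27 was left out, the distance between L25 and L27 was the only spread within a class, and the rule had made it large. That works against any call of a member, so those fits cannot show whether the calls rest on H23 or H27. When L25 or L27 was left out, that distance was gone, so a call gained restates the values that chose the members. In these fits the class with a lone array is assumed to vary like the other. With a term for whether hybridization controls were high or low, 0 members and 152 of all probe sets passed. On 4 arrays that term leaves little from which to estimate the spread, and the distance between L25 and L27 still enters it. So that fit cannot show whether the calls rest on the split of the controls.

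A small number of members also differed between the high switching subclones. A 2-fold difference between H23 and H27 was found for 10 of 58 members, against 0.391% of the 14561 probe sets at the same level. With the rule applied to the high pair itself, 41 probe sets were divergent, and 7 of them were members, which is 17.1% of that list and 12.1% of the members. Ly6d (1.5045, H23 minus H27) and Neurog3 (1.59) were higher in H23, and Clec2i (-1.91), Iglv1 (-1.77), both Malat1 probe sets (-1.68 and -1.59), Cyp2c55 (-1.24), 1 Ccnd1 probe set (-1.09), 1450455_s_at (-1.08) and Pim2 (-1.01) were higher in H27. The other Ccnd1 probe sets differed by 1.34-fold and 1.18-fold between H23 and H27.

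**Figure D4:**
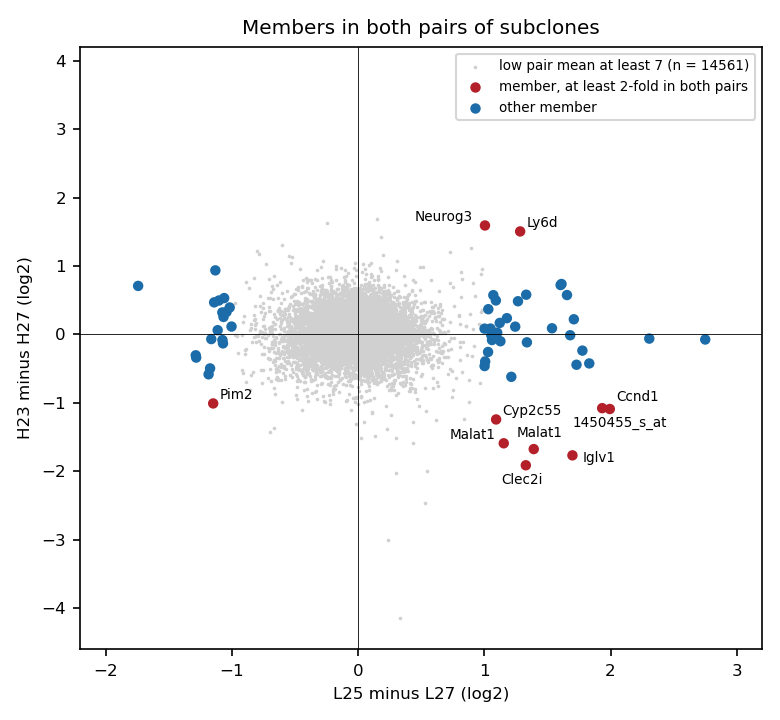
Difference in the low pair (L25 minus L27) against the difference in the high pair (H23 minus H27), both log2. Red points are the 10 members that differ at least 2-fold in both pairs, blue points the other members, and grey points all probe sets with a low pair mean of at least 7.

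The control probe sets of the arrays split the subclones in a way that crosses the switching classes. The 18 hybridization controls had a mean log2 intensity of 11.32 in L25 and 11.23 in H27, and of 10.72 in L27 and 10.79 in H23. Ribosomal 18S controls followed, with 7.76 and 7.76 against 7.14 and 7.35, as did the B1 repeat control, with 13.54 and 13.63 against 12.49 and 13.18. Of the 10 members that differed in both pairs, 7 were higher in L25 and H27, the arrays with higher controls, and 3 (Ly6d, Neurog3 and Pim2) were not. Over all 58 members the sign of L25 minus L27 matched that of H27 minus H23 for 32, or 55.2%, against 50.0% of the probe sets at that level. Malat1, Iglv1 and Clec2i were among those that followed the controls, whose part in these values was not tested.

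Of 27 gene lists of pathways and cell types, 5 held members, and 9 of the 42 member genes were in a list. Over all genes at a mean of at least 7, 42 of 8246 (0.509%) had a member. Of 23 B cell genes at a mean of at least 7, Fcgr2b, Btk and Tnfrsf13b were members higher in L25 and Ebf1 higher in L27 (17.4%), and the list's median difference was 0.01 against -0.01 over 8246 genes. Of 33 switching and hypermutation genes, Ptbp2 was a member and the median was -0.03. Tlr4 and Pim2 were the members among 24 cytokine receptors and signals (median -0.18), Gbp3 among 24 interferon response genes (-0.06), and Pgam2 among 30 glycolysis and hypoxia genes (-0.17). The 7 plasma cell genes had a median of -0.02. Of the remaining pathway lists, 13 had medians from -0.30 for histone genes, with 5 measured at that level, to 0.08 for sterol and fatty acid synthesis.

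A list without members still leaned one way. Of 33 mitosis genes, 32 were lower in L25 than in L27, with a median difference of -0.19, where 4383 of 8246 genes were lower in L25. Sizes were small, between -0.54 for Ect2, which drives cytokinesis, and 0.07 for the centromere histone Cenpa. Without the 5 genes on chromosomes 3, 14 and 17, the median was -0.19 and 27 of 28 were lower. The same list was higher in H23 than in H27 for 29 of 33 genes. It was thus lower in L25 and H27, the arrays with the higher control probe sets, and the part of that split was not tested. No gene of it differed by 2-fold between L25 and L27.

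The class I antigen presentation list leaned the other way. Its 13 genes had a median of 0.19 in favour of L25. The 9 of them on chromosome 17 had a median of 0.42, with Tap1, a peptide transporter, at 0.45 and H2-K1 and H2-M3 at -0.09 and 0.04. The other 4 had -0.06, with the proteasome subunit gene Psmb10 at 0.44. H2-T24 had the largest difference of the list (0.96), just outside the rule.

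Along the chromosomes, small differences of one sign ran through whole stretches of neighbouring genes, and several members lay inside them. The stretches were chosen after the values were seen, and each gene is represented by its probe set with the highest low pair mean. On chromosome 3, 323 of 361 genes at a mean of at least 7 were lower in L25, with a median of -0.25. All 4 members on this chromosome (Ptbp2, Arhgap29, Gbp3 and Ctbs) were higher in L27, and they lay among its last 81 genes, whose median was -0.25. On chromosome 14, 77 of 80 genes from Ghitm to Pspc1 were lower in L25 (median -0.35), and Gch1 and Ripk3 lie there. Before Ghitm, 74 of 80 genes were lower in L25 too, with a median of -0.20. The 102 genes after Pspc1, which include Lcp1, had a median of -0.04.

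Chromosome 17 showed the opposite sign. From its start to Satb1, 279 of 300 genes were higher in L25, with a median of 0.34, which is 1.26-fold. The 105 genes that follow had a median of -0.06. Tmem242 lies in the first stretch and Lclat1 in the second, and both were higher in L25. Lclat1 ran against its surroundings, since its 20 nearest genes had a median of -0.23. In the group of 20 genes from Rab31 to Memo1, in that second stretch, 17 were lower in L25 (median -0.26). On the 17 other chromosomes with genes at that level, the medians lay between -0.05 and 0.02, but shorter stretches occurred there. On chromosome 5, of the first 7 groups of 20 neighbouring genes, 6 had medians from 0.12 to 0.26 and the fifth had 0.04, and Lrpap1 lies in the sixth (0.18). On chromosome 4, a pair of adjoining groups had 0.20 and 0.22. In the high pair, chromosome 3 had a median of -0.18 (H23 minus H27), and the stretches of chromosomes 14 and 17 had -0.01 and 0.03. Its median over the whole of chromosome 3 did not stand apart in that pair. High pair medians of like size or larger were found on chromosomes 13 (0.24), 6 (0.17), 11 (0.17) and 18 (-0.16). Within chromosome 3, the groups of 20 genes from Rpl22l1 to Zfp267 and from Dhx36 to Tmem131l had high pair medians of -0.39 and -0.38. In the low pair these groups had -0.43 and -0.33. Groups on chromosomes 13 (Bicd2 to Higd2a) and 1 (Mettl18 to Uhmk1) had 0.37 and 0.36 in the high pair.

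**Figure D5:**
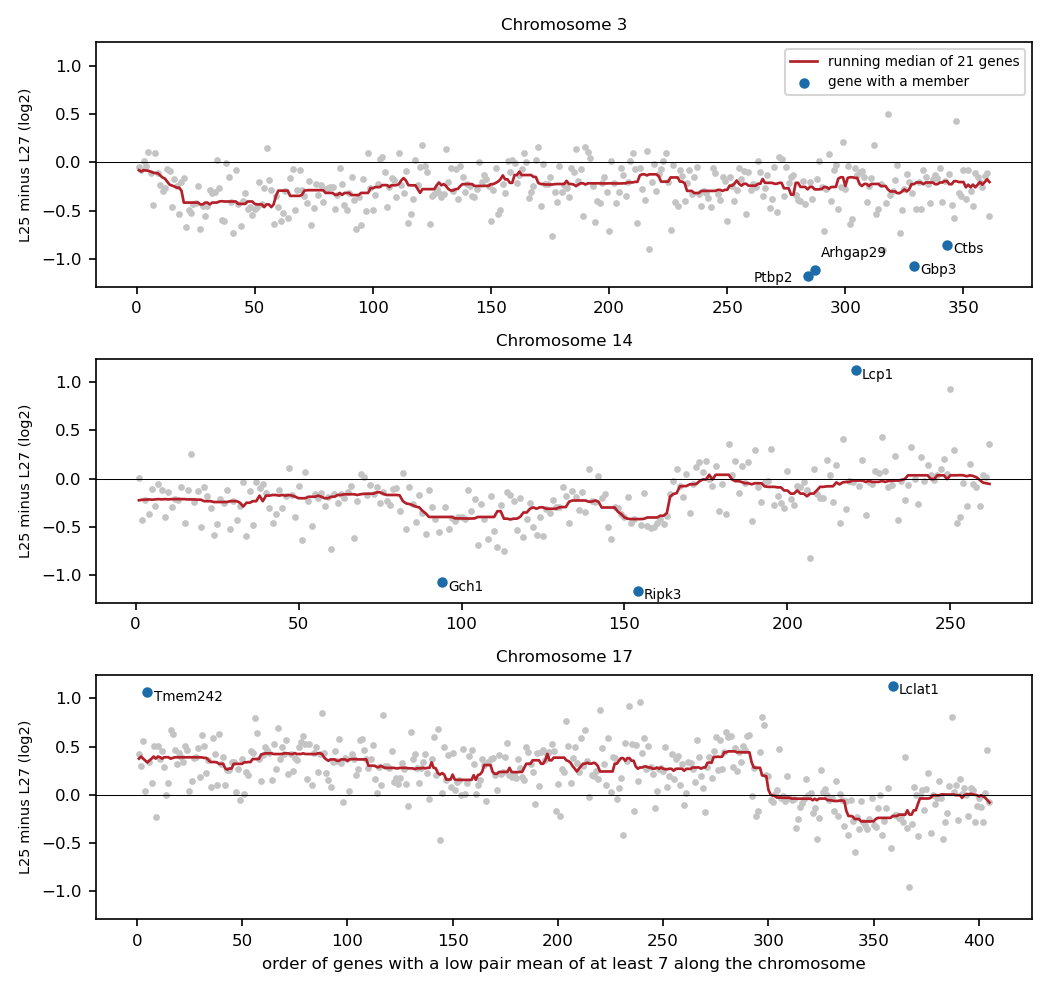
L25 minus L27 (log2) for genes with a low pair mean of at least 7, in their order along chromosomes 3, 14 and 17. The red line is a running median of 21 genes and blue points are genes with a member, each gene drawn at its brightest probe set. The line lies below 0 along chromosome 3 and the earlier part of chromosome 14, and above 0 on chromosome 17 up to Satb1.

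Each member was also set against the median of its nearest 20 genes at that level, or fewer at a chromosome end. Of the 50 member probe sets with a position, 13 had a difference under 2-fold once that median was subtracted, among them Ripk3 (-0.75), Gch1 (-0.70), Ptbp2 (-0.91), both Lrpap1 probe sets (0.89 and 0.84) and Tmem242 (0.74). For 9 of the 13 the neighbours' median was at least 0.1 in size. The other 4 (Tlr4, Ebf1, Rcn3 and Neurog3) sat at the edge of the rule, with neighbour medians of 0.01 to 0.05 in size. Ccnd1, Kcnn4 and both Fcrla probe sets kept a 2-fold difference. Around Fcrla and Fcgr2b on chromosome 1, none of the nearest genes measured on either side differed as much. Dusp12 and Atf6 before them had differences of 0.05 and -0.15, and the Fc receptor genes Fcgr4 and Fcgr3 after them had 0.27 and 0.18 at low levels, with 5.83 and 4.55 in L25. Further on, Cfap126 had 0.45, at 6.62 in L25, and the brighter Sdhc had -0.23. Differences of dim probe sets are compressed, so a weaker difference shared by the genes after Fcgr2b cannot be told from these values. Chromosome 1 held 8 members of 847 probe sets at that level (0.945%) and chromosome 14 held 4 of 420 (0.952%), against 0.398% over all probe sets. Fcrla and Fcgr2b on chromosome 1 and Lcp1 on chromosome 14 count with 2 probe sets each. Shares above 0.398% were also found on chromosomes 19 (0.811%), X (0.752%), 3 (0.681%), 7 (0.659%) and 16 (0.648%). On chromosome 7, Ccnd1 counts with 3 probe sets and Kcnn4 with 2, and on chromosome 19 Malat1 counts with 2. The remaining chromosomes lay below it, with 2 of 614 (0.326%) on chromosome 17.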

How the data were processed

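Each of the 4 subclones gave total RNA for 1 Affymetrix array, per the labels. What the authors deposited is a linear intensity for each probe set. RMA is the only tool in the submitters' processing notes, with no version, and it normalizes between arrays and compresses differences of dim probe sets. Medians lay between 38.1 and 39.3 on the 4 arrays. Values were transformed to log2, 64 control probe sets were left out, and 45037 were used. Symbols came from the platform annotation of the array, 1 symbol for 34945 probe sets, several for 932 and none for 9160, and chromosomes and gene order from a RefSeq gene table of GRCm38.p6. Which build the authors used was not given in these sources.

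The members, lists and alternatives were chosen with earlier results of these data known. Named genes were, among members with 1 symbol, the 15 with the largest difference in each direction, those with 3 or more member probe sets, up to 4 in each list, the 4 nearest to the edge on either side, and those 2-fold apart in the high pair. Other names were chosen after their values were seen. The test of high minus low was limma 3.58.1 in R 4.3.3, two-sided, adjusted by Benjamini-Hochberg over all probe sets, and the script was checked on simulated data. Its spread is that between 2 clones of a class. Alternative floors, folds, scalings and left-out arrays were tried. Plots used matplotlib 3.10.9.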

Additional observations from a re-analysis of the deposited data

How the results depend on the processing

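Each subclone has 1 array, so neither array of the low pair could be left out of its own comparison, and their number limits the precision of every value. No paired analysis was possible because the comparison is between single arrays and the replicate numbers of the classes only follow the order of the samples. Of the count of 58 members, 91 were found with a mean of at least 6, 36 with at least 8, 123 with a difference of at least 0.8, 15 with at least 1.5, and 36 with 1 probe set for each gene. It was 60 (44 higher in L25 and 16 in L27) after quantile normalization again, 54 (35 and 19) with median centring, 46 (34 and 12) with 32 added before the log2, and 39 (25 and 14) without probe sets that may match several transcripts. All 58 differences kept their sign under these 3 scalings, and 6 shrank by more than 0.24 with 32 added. The count also divergent in the high pair was 6 of 39 without those probe sets and between 7 and 10 in the others. The count nearer to L25, 13 of 58, was 8 of 46 with 32 added, 7 of 39 without those probe sets, and 13 to 14 when 1 high switching array was left out. The count of members that passed limma was 10 with a variance trend, where 1594 of 45037 probe sets passed. It was 11 with a mean over the 4 arrays of at least 6, where 1829 of 18443 passed. After quantile normalization again it was 11, where 1770 of 45037 passed. With the hybridization controls as a block it was 0, where 152 of 45037 passed. When 1 array was left out it was 0 to 20. That range cannot be read, since the distance between L25 and L27 is then either the only spread within a class or gone.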
